A study of Mus musculus with 3 samples.

Results

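Gfap, Vim, Nes, Synm, Cd44, Cd9, Serpina3n and Igfbp5 are genes that astrocytes of the injured or diseased central nervous system are known to switch on or raise. They were taken by symbol, 8 of 31040 genes in the table of UMIs (unique molecular identifiers, each standing for 1 counted RNA molecule) from nuclei of mouse lumbar spinal cord. The members were chosen by 2 measured values, the UMIs summed by genotype in each mouse over cell types and astrocyte sub-clusters and the share of astrocyte nuclei holding each gene, so that for the members both are descriptions, and fold changes and calls between genotypes are given as such and not as tests of the list.

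The nuclei came from 12 mice aged 90 days. The SOD1G93A group was B6.Cg-Tg(SOD1G93A)1Gur/J, a line with many copies of a mutant human SOD1 gene that is driven by its own promoter in all cell types and serves as a model of amyotrophic lateral sclerosis. The WT group was C57BL/6J littermates, and each genotype was 3 female and 3 male mice. Each of 3 pools, A, B and C, held 1 mouse of every sex and genotype, told apart by hashtags on the nuclei. Per the study's design each sex and genotype had the same hashtag in every pool, so that hashtag and group cannot be told apart. A mouse is the replicate throughout.

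Of 14662 nuclei, 1555 (10.6%) were labelled astrocytes by the study, with 927 in WT and 628 in SOD1G93A mice, 45 to 250 per mouse and a median of 5338 UMIs. The 5 astrocyte markers, which include Aqp4 and Gja1, summed to between 5944 and 8039 CPM (UMIs relative to a common total, on scaled library sizes) in the astrocytes of WT mice and to between 6907 and 9349 in those of SOD1G93A mice, with 0 of the 5 absent. Markers of other cells were present as well. Oligodendrocyte markers summed to between 1231 and 1835 CPM in WT and to between 1696 and 2939 in SOD1G93A mice, neuron markers to between 656 and 1109 and to between 709 and 1445, and microglia markers to between 19.2 and 90.1 and to between 38.8 and 66.0, each with 0 of 5 genes at 0. The median percent of mitochondrial UMIs in astrocytes was 0.570 to 1.31 in WT and 1.12 to 2.33 in SOD1G93A mice. Sod1 itself was between 62.3 and 290 CPM in WT astrocytes and between 367 and 1361 in SOD1G93A astrocytes, above in every mouse. Whether reads of the human transgene were counted on the mouse gene was not tested. Across pools, 30 nuclei (0.205%) shared a barcode.

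Astrocytes tile the grey and white matter, take up transmitter and potassium, and line the vessels with their endfeet. In response to injury or disease they become reactive, which includes building up the intermediate filament network. Gfap, Vim, Nes and Synm encode its proteins: glial fibrillary acidic protein, vimentin, nestin and synemin. Cd44 is a surface receptor for hyaluronan and osteopontin, Cd9 is a tetraspanin that gathers integrins and other proteins in the membrane, Serpina3n is a secreted serine protease inhibitor, and Igfbp5 is a secreted protein that binds insulin-like growth factors. Gfap, Vim and Serpina3n are common markers of the reactive state, whereas Nes is better known from neural progenitors and vessels.

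In the GENCODE annotation of mm10 (the GRCm38 assembly), Gfap lies at chr11:102887336-102900912 on the minus strand, Vim at chr2:13573927-13582826 on the plus strand, Nes at chr3:87971078-87980451 on the plus strand and Synm at chr7:67730160-67759742 on the minus strand. Cd44 lies at chr2:102811141-102901665 on the minus strand, Cd9 at chr6:125460266-125494791 on the minus strand, Serpina3n at chr12:104406729-104414329 on the plus strand and Igfbp5 at chr1:72857932-72874884 on the minus strand. Introns were counted, so that a member is its whole span here. Gfap, Synm, Cd44 and Cd9 overlap annotated genes of the opposite strand, and 0 members overlap a gene of their own strand. Serpina3n is 1 of 11 Serpina3 genes side by side on chromosome 12, and since these are close copies its counts are uncertain.

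The promoters of Gfap and Vim are shown because these filament genes, which are commonly read together as signs of reactive astrocytes, were both higher in the transgenic astrocytes described below. Each is the stretch from 250 bases before to 50 bases after the start of the gene in RefSeq (GRCm38.p6), written 5′ to 3′ on the strand of the gene. Capitals mark every match to 1 of 5 motifs searched on both strands. These were TTCNNNGAA, the element bound by STAT factors, TGANTCA, the AP-1 element, TGACGTCA, the cyclic AMP response element, TATAAA, the TATA box, and the kappaB element, written GGGA and CCC with 3 bases between them. The Gfap stretch is chr11:102897151-102897450 and the Vim stretch chr2:13574061-13574360.
Gfap: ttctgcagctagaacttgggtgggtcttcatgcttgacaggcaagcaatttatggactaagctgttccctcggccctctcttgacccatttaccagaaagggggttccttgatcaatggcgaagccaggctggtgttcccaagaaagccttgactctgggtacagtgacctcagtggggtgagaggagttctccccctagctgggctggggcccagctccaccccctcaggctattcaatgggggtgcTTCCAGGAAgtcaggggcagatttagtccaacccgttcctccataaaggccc
Vim: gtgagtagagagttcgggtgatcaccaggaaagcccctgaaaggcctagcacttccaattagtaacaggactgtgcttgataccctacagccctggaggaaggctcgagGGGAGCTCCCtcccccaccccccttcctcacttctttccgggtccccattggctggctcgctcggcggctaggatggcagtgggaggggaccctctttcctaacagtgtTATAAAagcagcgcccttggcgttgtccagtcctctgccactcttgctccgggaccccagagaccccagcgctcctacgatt

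The capitals in Gfap are a STAT element from 2 bases before the start to base 6 after it. STAT elements were in 8.30% of the 32851 promoters of this length, and Gfap was the 1 member of 8 that held one. The capitals in Vim are a kappaB element from 141 to 132 bases before the start and a TATA box from 32 to 27 bases before it. The TATA box was in 13.6% of all promoters and in 1 member. The kappaB letters were in 5.55% of all promoters and in 4 members, Vim, Nes, Synm and Igfbp5. The AP-1 element (7.81% of promoters) and the cyclic AMP response element (1.79%) were in 0 of the 8 members. A match describes letters in this window and not a site in use.

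In the summed astrocytes of each mouse, the filament gene Gfap, its partner Vim, the receptor Cd44, the tetraspanin Cd9 and the binding protein Igfbp5 were all higher in SOD1G93A than in WT mice, by between 1.90 and 3.25 times. Serpina3n was 2.63 times as high from few molecules, Synm was 1.12 times as high with a wide error, and Nes was almost absent. Of the 8 members, 7 passed the filter on low counts and 5 were called higher in SOD1G93A at a false discovery rate (FDR) under 0.1 by limma, while 1.38% of all 9347 astrocyte genes tested were called higher and 2.29% in either direction. The median log2 fold change of the 7 was 0.99, beside 0.02 over all genes tested. The members were listed from this contrast, so that nothing is read from the count. The filter asked for 13.3 CPM in 3 mice, and Vim, Serpina3n and Synm reached it in 0, 0 and 2 WT mice and in 6, 3 and 3 SOD1G93A mice. These 3 members were thus tested through the SOD1G93A group, where their means were higher, and the count and the median of the 7 hold that choice.

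Among the filament genes, Gfap was 215 CPM in the lowest WT mouse, 276 at the median and 298 in the highest. In SOD1G93A mice the lowest was 484, the median 547 and the highest 691 CPM. The lowest transgenic mouse, male C, was thus above all 6 WT mice. The means were 265 ± 31.9 and 576 ± 87.6 CPM (SD, n = 6), a log2 fold change of 1.12 (SE 0.11) from 1418 and 2390 UMIs.

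Vim was between 3.84 and 13.3 CPM in WT mice, with a median of 7.33. In SOD1G93A mice it was between 17.5 and 43.8, with a median of 21.4. The groups did not overlap although Vim was sparse, with 43 and 114 UMIs in all. Its mean went from 8.26 ± 3.97 to 26.9 ± 10.8 CPM (SD, n = 6), a log2 fold change of 1.71 (SE 0.27).

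Synm, whose protein joins mixed filaments with vimentin and links them to the membrane, was 11.8 ± 3.03 CPM in WT and 13.3 ± 6.19 in SOD1G93A astrocytes (SD, n = 6). It was higher in the transgenic mouse of 3 of 6 pairs of the same sex and pool, with a log2 fold change of 0.08 (SE 0.33). The lowest of all mice, at 3.37 CPM, and the highest, at 22.5 CPM, were both SOD1G93A females. Nes had 1 UMI in WT and 4 UMIs in SOD1G93A astrocytes and did not pass the filter. Differences between the filament genes were not tested.

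Of the surface proteins, Cd44 was between 22.9 and 69.1 CPM in WT mice (median 30.5) and between 46.7 and 99.8 in SOD1G93A mice (median 66.2). The ranges met through a single WT mouse, female C at 69.1 CPM, while the other WT mice reached at most 33.2. The means were 35.0 ± 17.2 and 68.6 ± 19.3 CPM (SD, n = 6), and the log2 fold change was 0.99 (SE 0.18), or 1.13 without that female. In 6 of 6 pairs of the same sex and pool the SOD1G93A mouse was higher.

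Cd9 was between 44.2 and 95.5 CPM in WT mice (median 63.7) and between 84.8 and 171 in SOD1G93A mice (median 122). The ranges overlapped at the WT female of pool B and the SOD1G93A female of pool C, and all 6 pairs were higher in SOD1G93A. The means were 66.1 ± 19.6 and 125 ± 30.4 CPM (SD, n = 6), a log2 fold change of 0.92 (SE 0.15).

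Of the secreted proteins, Igfbp5 was between 36.7 and 52.6 CPM in WT mice, with a median of 47.2. SOD1G93A mice lay between 71.2 and 132 CPM, with a median of 83.7, and did not overlap with WT. Its mean went from 46.5 ± 5.68 to 90.2 ± 22.7 CPM (SD, n = 6), a log2 fold change of 0.90 (SE 0.15). Gfap, Vim and Igfbp5 were the 3 members whose groups did not overlap, as was the case in the same direction for 0.481% of all genes tested.

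Serpina3n rested on 23 UMIs in WT and 54 in SOD1G93A astrocytes. It was between 2.21 and 9.60 CPM in WT and between 4.19 and 21.5 in SOD1G93A mice, higher in all 6 pairs. With means of 4.44 ± 2.81 and 11.7 ± 6.67 CPM (SD, n = 6) its log2 fold change was 1.21, larger than that of Gfap, but the SE of 0.49 was the widest of the 7 and it was not called.

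**Figure D1:**
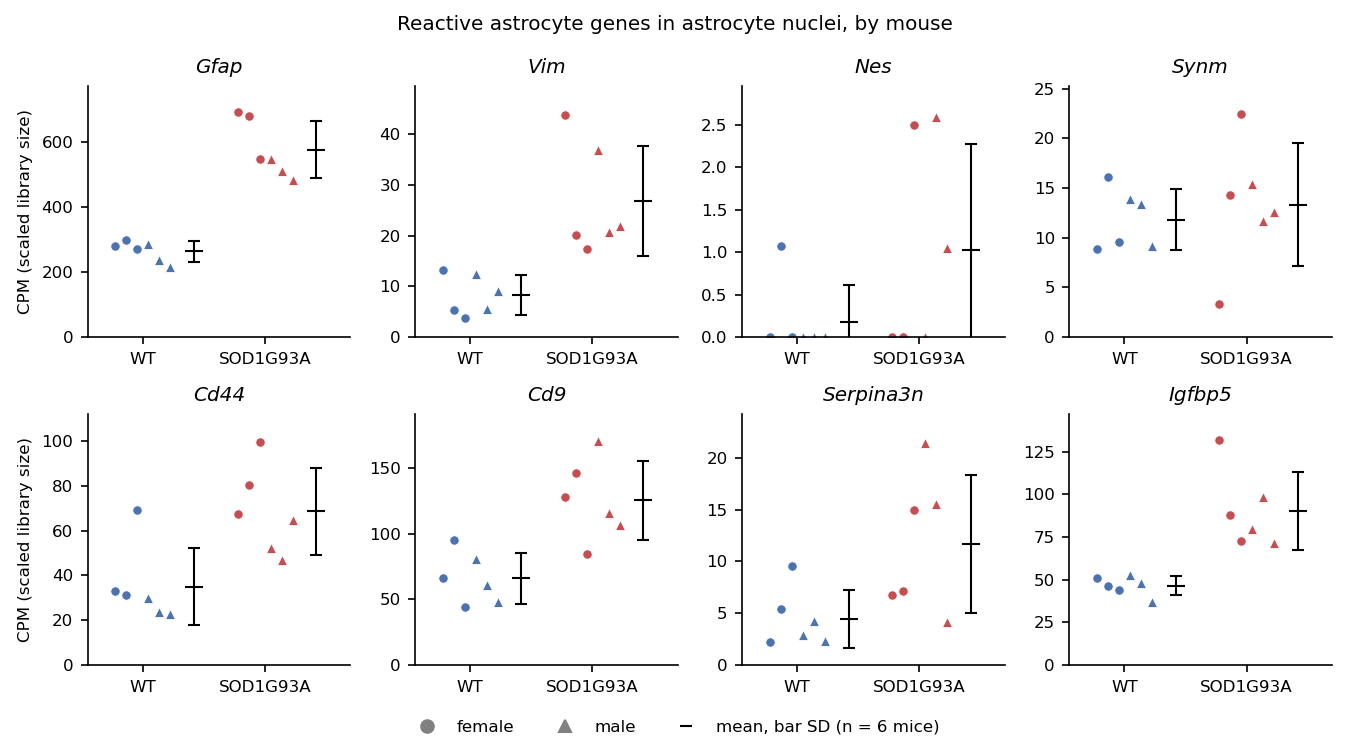
CPM of each of the 8 genes in the summed astrocytes of every mouse (vertical axes, each gene with its own scale) for the 6 WT and the 6 SOD1G93A mice, circles for females and triangles for males, with the mean and SD of each group. For Gfap, Vim and Igfbp5 the lowest SOD1G93A mouse is above the highest WT mouse. The groups overlap for Cd44, through 1 WT mouse above the SOD1G93A median, and for Cd9, Serpina3n, Synm and Nes.

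The sex of the mice was not part of the choice of members and was tested. Females had more Cd44 than males, 63.5 against 40.1 CPM, in 6 of 6 pairs of the same genotype and pool, a log2 difference of 0.63 (SE 0.18). That difference did not pass adjustment over all genes (limma, unadjusted p = 0.00185, Benjamini-Hochberg adjusted p = 0.436). Gfap was 461 CPM in females and 380 in males, higher in the female of 5 of 6 pairs, a log2 difference of 0.26 (SE 0.11, limma, unadjusted p = 0.0205, adjusted p = 0.810). For the other 5 members tested the log2 difference lay between -0.02 and 0.22 with limma's adjusted p from 0.995 to 0.998. In all, 0 of 7 members and 0.139% of all genes passed for sex.

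The genotype difference was also set against sex. For Gfap the log2 fold change was 1.16 (SE 0.15) in females and 1.07 (SE 0.15) in males, and for Cd44 it was 0.99 in both sexes (SE 0.27 and 0.24). The interaction, male minus female, was -0.10 (SE 0.21) for Gfap, 0.27 (SE 0.30) for Cd9 and 1.04 (SE 0.98) for Serpina3n, and limma's adjusted p was 1.00 for all 7 members. The smallest of the unadjusted p, at 0.300, was that of Serpina3n. Among all genes 0.0107% passed. Errors of this size are too wide to show that the sexes responded alike.

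The share of astrocyte nuclei with at least 1 UMI was compared after every nucleus was thinned to 2000 UMIs, with the 47 WT and 29 SOD1G93A nuclei under that depth left out. Gfap was then found in 27.2 ± 4.83% of WT and 48.3 ± 4.43% of SOD1G93A astrocyte nuclei (SD, n = 6 mice). In neurons of the same mice, which should lack Gfap, the share at the same depth was 2.03% and 2.05%. Median depths before thinning were 5360 and 5699 UMIs in the astrocytes used and 13019.5 and 12909 in the neurons. Gfap in astrocytes was thus well above the level in neurons, in both genotypes and in every mouse.

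Cd9 was found in 12.3 ± 4.15% of WT and 20.6 ± 3.76% of SOD1G93A astrocyte nuclei, with 0.932% and 1.44% in neurons. Igfbp5 was in 8.08 ± 1.00% and 14.2 ± 2.78%, with 1.11% and 0.930% in neurons, and Cd44 in 4.37 ± 1.82% and 10.2 ± 2.37%, with 0.612% and 0.688% in neurons. For these 3 genes as for Gfap the share was higher in SOD1G93A in 6 of 6 pairs. Vim was in 1.16 ± 0.574% and 4.07 ± 1.58% of nuclei and Serpina3n in 0.755 ± 0.560% and 2.26 ± 1.57%, against 0.172% to 0.300% and 0.307% to 0.365% in neurons. Synm was in 2.25% and 2.55%, higher in SOD1G93A in 2 of 6 pairs, with 1.09% and 1.19% in neurons. Nes was in 0.0262% of WT and 0.191% of SOD1G93A nuclei and in 0.0499% and 0.0241% of neurons, so that its WT share was at the level of background. Without thinning, Gfap was in 43.7% and 68.3% of astrocyte nuclei.

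The spread of Gfap over astrocyte nuclei is described next. A high percentile moves with the share of Gfap-rich nuclei, and a higher level in the richest nuclei was not tested apart from that share. Among astrocyte nuclei of at least 2000 UMIs, the one at the 90th percentile of its mouse had between 6.69 and 9.93 Gfap UMIs per 10000 in WT and between 14.0 and 21.8 in SOD1G93A mice. The top 10% of nuclei held 51.4% to 71.2% of all Gfap UMIs in WT mice and 44.0% to 53.3% in SOD1G93A mice. Over all 1555 nuclei at their own depths, 500 (32.2%) had 0 of the 8 members, 452 had 1, and 4 had 7, which was the most in any nucleus.

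The study split its astrocytes into sub-clusters numbered 0 to 4, with 524, 438, 220, 195 and 178 nuclei. The study made them from the expression of these nuclei, and which genes it used is not given in the sources used here, so that their levels are described and not tested. In sub-cluster 4 oligodendrocyte markers summed to a mean of 7262 CPM, beside 13108 of astrocyte markers there and 7783 in oligodendrocytes. In sub-cluster 2 neuron markers summed to 2487 CPM, beside 4221 of astrocyte markers there and 3445 in neurons. Oligodendrocyte markers summed to 3091 CPM in sub-cluster 3, beside 11553 of astrocyte markers there, and to 1798 and 784 in sub-clusters 0 and 1. Neuron markers in sub-cluster 4 summed to 2093 CPM. Levels in the sub-clusters, with sub-cluster 3 among them, are thus of nuclei that also carry markers of other cells. Of WT astrocyte nuclei 31.0%, 37.2%, 14.5%, 9.49% and 7.88% were in sub-clusters 0 to 4, and of SOD1G93A nuclei 37.7%, 14.8%, 13.7%, 17.0% and 16.7%, which are given as denominators and not as a result. Sub-cluster 3, with 14.0% of astrocyte UMIs and 9 to 26 nuclei per mouse, held 69.7% of the Cd44, 63.1% of the Vim, 47.7% of the Gfap, 42.1% of the Igfbp5, 39.0% of the Serpina3n and 30.2% of the Cd9 UMIs, but 22.7% of those of Synm. These shares pool the genotypes. In WT and SOD1G93A mice sub-cluster 3 held 72.9% and 67.6% of the Cd44, 55.8% and 65.8% of the Vim, 49.5% and 46.6% of the Gfap, 36.7% and 45.9% of the Igfbp5, 21.7% and 46.3% of the Serpina3n and 22.7% and 35.1% of the Cd9 UMIs. Sub-cluster 1, with 25.1% of astrocyte UMIs, held 4.57% of the Gfap and 2.25% of the Cd44 UMIs. Cd9 had 37.8% of its UMIs in sub-cluster 0, more than in sub-cluster 3, and Igfbp5 had 35.4% there. In WT mice sub-cluster 0 held more of the Igfbp5 (39.1%) and of the 23 Serpina3n UMIs (30.4%) than sub-cluster 3. These sums do not show that single nuclei held several members, and 35, 9 and 4 astrocyte nuclei had UMIs of 5, 6 and 7 of the 8.

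In sub-cluster 3, where Gfap and Cd44 were highest, the genotypes were closer for these 2 genes than in all astrocytes together. There Gfap was 1499 ± 300.2 CPM in WT and 1719 ± 314 in SOD1G93A mice (SD, n = 6), a log2 fold change of 0.22 (SE 0.15), and Cd44 was 296 ± 193 and 306 ± 114 CPM, a log2 fold change of 0.04 (SE 0.23). Vim there was 55.04 ± 54.5 and 115 ± 20.9 CPM (log2 fold change 1.59, SE 0.41), Cd9 was 164 ± 39.9 and 286 ± 138 (0.81, SE 0.26) and Igfbp5 was 204 ± 27.8 and 269 ± 104 (0.41, SE 0.23). Every one of the 5 overlapped between the groups. The value of Cd44 rested on the WT female of pool C at 684 CPM, and without this mouse the WT mean was 218 CPM and the log2 fold change 0.26 (SE 0.24). Leaving out single mice was added for the sub-clusters after these values were seen.

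In sub-cluster 0, the largest, Gfap was between 192 and 305 CPM in WT and between 328 and 606 in SOD1G93A mice, without overlap, a log2 fold change of 0.86 (SE 0.15). It was 1 of 3 members tested there and the 1 called, where 0.0751% of genes were called higher. Cd44 in sub-cluster 0 was between 5.398 and 21.8 CPM in WT and between 27.3 and 38.8 in SOD1G93A mice, from 19 and 48 UMIs, too few for the filter. Cd9 there had a log2 fold change of 0.62 (SE 0.21) and Igfbp5 one of 0.42 (SE 0.22). Gfap was 68.2 ± 19.2 and 172 ± 143 CPM in sub-cluster 1 (log2 fold change 1.15, SE 0.30), 68.9 ± 53.4 and 135 ± 85.1 in sub-cluster 2, and 810 ± 479 and 1121 ± 240 in sub-cluster 4. Some of these mice had few nuclei. Sub-cluster 1 had 5 in the SOD1G93A female of pool B, and sub-cluster 2 had 3 in the SOD1G93A female of pool C. Sub-cluster 4 had 3 in the WT female and 3 in the WT male of pool C. Cd9 in sub-cluster 4 was 214 ± 108 CPM in WT and 186 ± 85.9 in SOD1G93A mice (SD, n = 6), lower in 5 of 6 pairs, with a log2 fold change of -0.12 (SE 0.37), or -0.95 (SE 0.57) in females and 0.70 (SE 0.48) in males. Vim in sub-cluster 3 and Gfap in sub-clusters 1 and 2 passed the filter through the SOD1G93A mice alone. In sub-cluster 2 the log2 fold change of Gfap was 0.28 (SE 0.43), from 55 UMIs in WT and 85 in SOD1G93A mice of both sexes. It was -1.48 (SE 0.66) in females and 2.04 (SE 0.59) in males. In sub-clusters 1 to 4, 0 members were called, with 0%, 0.0752%, 0.063% and 0.0429% of genes called higher. In sub-cluster 1 the log2 fold change of Gfap was 0.79 without the SOD1G93A female of pool A, at 439.7 CPM, and it was called without the WT female of pool C (1.24) or the SOD1G93A male of pool A (1.35). In sub-cluster 2 it was 0.93 without the SOD1G93A female of pool B and -0.14 without the SOD1G93A female of pool A.

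**Figure D2:**
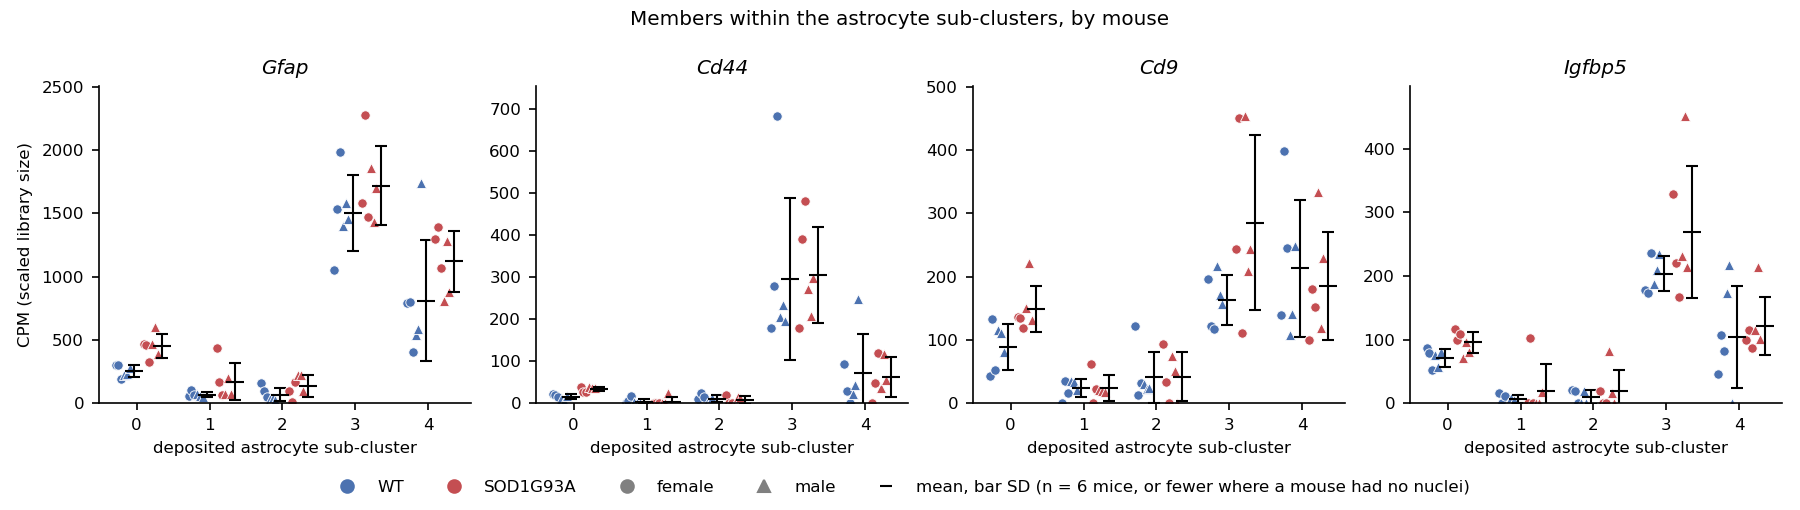
CPM (vertical axes, each gene with its own scale) of Gfap, Cd44, Cd9 and Igfbp5 in the 5 astrocyte sub-clusters (horizontal axes) for WT (blue) and SOD1G93A (red) mice, circles for females and triangles for males, with the mean and SD of 6 mice. Gfap and Cd44 are highest in sub-cluster 3 in both genotypes, where the groups overlap, and Gfap is apart between the groups in sub-cluster 0.

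When the levels of the 5 sub-clusters were averaged with the same weights in every mouse, the differences between genotypes were smaller for the 5 members called and for Serpina3n. This calculation was chosen after the values above were seen. The log2 ratio of group means, on unscaled library sizes, went from 1.199 to 0.49 for Gfap, from 1.78 to 0.88 for Vim and from 1.07 to 0.14 for Cd44. It went from 0.99 to 0.47 for Cd9, from 1.03 to 0.46 for Igfbp5, from 1.48 to 0.79 for Serpina3n and from 0.25 to -0.24 for Synm, while Nes, with 5 UMIs in all, went from 2.49 to 2.84. With the same weights the groups overlapped for every member, and SOD1G93A was higher in 5 of 6 pairs for Gfap, 4 of 6 for Cd44 and 6 of 6 for Vim, Cd9 and Igfbp5. The weights and the levels come from the same counts, and some mice had as few as 3 nuclei in sub-clusters 2 and 4. Since the sub-clusters were made from the expression of these nuclei, equal weights can shrink a difference by construction. The smaller ratios are thus a description, and what lies behind them was not tested.

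Since mitochondrial percents were higher in SOD1G93A astrocytes, the 783 nuclei with at most 1% were also taken alone, again a choice made after the data were seen. The log2 fold change was then 1.13 for Gfap, 1.28 for Cd44, 0.73 for Cd9 and 1.02 for Igfbp5, close to or above the value of all nuclei apart from Cd9, which was no longer called. Vim, Serpina3n and Synm had too few counts there. Oligodendrocyte markers summed to between 1231 and 1835 CPM in WT and to between 1696 and 2939 in SOD1G93A astrocytes, ranges that overlapped. Gfap in oligodendrocytes was between 12.1 and 28.6 CPM in WT and between 15.0 and 32.6 in SOD1G93A mice, below every astrocyte value. This did not hold for every member. Synm had means of 33.5 and 38.1 CPM (WT and SOD1G93A) in oligodendrocytes beside 11.8 and 13.3 in astrocytes. Vim had means of 393 and 346 CPM in endothelial cells beside 8.26 and 26.9 in astrocytes. Cd9 in SOD1G93A oligodendrocytes reached 47.6 CPM, above the lowest WT astrocyte value of 44.2. Whether mitochondrial percent or RNA of other cells bears on the differences between genotypes was not tested.

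**Figure D3:**
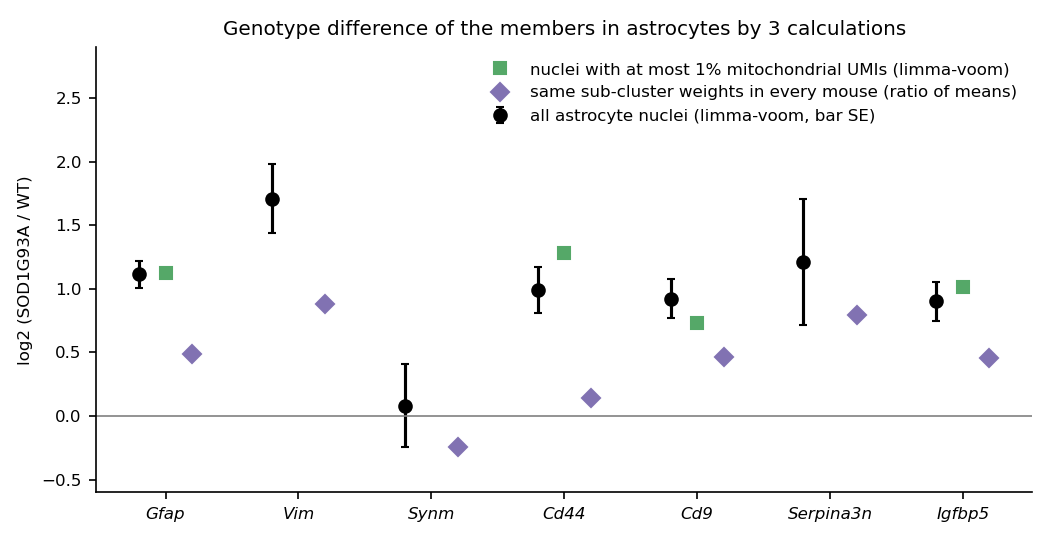
Log2 fold change (SOD1G93A over WT, vertical axis) of the 7 tested members in astrocytes by 3 calculations, the fit to all nuclei (black, bar SE), the fit to nuclei of at most 1% mitochondrial UMIs (green, for the 4 genes with enough counts) and the ratio of means with the same sub-cluster weights in every mouse (purple). Gfap is 1.12, 1.13 and 0.49, and Cd44 is 0.99, 1.28 and 0.14. The purple values rest on sub-clusters made from the expression of these nuclei and can be smaller by construction.

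Across the 10 cell types of the study the members had different homes. Gfap was highest in astrocytes in both genotypes. Its WT values, at a mean of 265 CPM, overlapped in range with fibroblasts, which reached 257 CPM from 3 UMIs in all. They also overlapped with ependymal cells (260.3 CPM from 12 UMIs) and with nuclei labelled Schwann and meningeal cells (176 CPM). The latter had a median of 1584 UMIs, and their Schwann cell markers summed to 142 CPM beside 2082 CPM of astrocyte, 5192 of neuron and 6459 of oligodendrocyte markers, so that the label is not borne out by those markers. In SOD1G93A mice all 6 astrocyte values of Gfap were above those of every other type. Gfap elsewhere was 44.0 and 53.1 CPM (WT and SOD1G93A) in endothelial cells, 19.2 and 22.1 in oligodendrocytes, 11.2 and 13.4 in microglia and 7.58 and 8.86 in neurons.

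The other filament genes had their highest means in endothelial cells. Vim was 393 CPM in WT and 346 in SOD1G93A endothelial cells, Nes 151 and 152, and Synm 170 and 187. Ependymal cells overlapped with them in range for Vim and Synm, at 129.5 and 339 CPM of Vim from 9 UMIs in each genotype and at 159.8 and 122 CPM of Synm from 12 and 5 UMIs. The endothelial nuclei carried endothelial and mural markers at a mean of 10799 CPM. In SOD1G93A mice Nes in endothelial cells, at least 116 CPM, lay above every value in the next type, from 326 UMIs. In WT mice fibroblasts overlapped with endothelial cells in range, reaching 427 CPM of Nes, 514 of Vim and 324 of Synm from 3, 4 and 7 UMIs. The astrocyte level of Vim in WT mice had rank 5 of the 10 types and above that of oligodendrocytes in every mouse. Between genotypes the log2 fold change in endothelial cells was -0.07 (SE 0.24) for Vim, 0.06 (SE 0.21) for Nes and 0.13 (SE 0.17) for Synm.

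Cd9 was broadly present, with the highest mean in WT mice in nuclei labelled Schwann and meningeal cells, at 154 CPM from 135 UMIs, and 142 CPM from 14 UMIs in ependymal cells. In SOD1G93A mice fibroblasts had 516 CPM from 14 UMIs and Schwann and meningeal cells 220.2 CPM from 465 UMIs. Next came OPCs (oligodendrocyte precursor cells) at 81.5 CPM in WT and 129 in SOD1G93A mice and astrocytes at 66.1 and 125, and each of these neighbouring types overlapped in range. Cd9 was 33.6 and 39.8 CPM in oligodendrocytes and 37.9 and 46.7 in endothelial cells. In microglia it went from 22.8 ± 10.0 to 44.97 ± 15.4 CPM (SD, n = 6, log2 fold change 0.78, SE 0.23), and in neurons from 4.41 ± 1.04 to 7.33 ± 2.03 (0.71, SE 0.13), higher in all 6 pairs in each. Nuclei labelled microglia had microglia markers at 146 CPM beside 3082 of oligodendrocyte and 2299 of neuron markers, so that this value is of nuclei in which the defining markers are low. Vim in neurons was low, at 0.691 and 1.16 CPM from 72 and 59 UMIs, and also higher in 6 of 6 pairs (log2 fold change 0.70, SE 0.30).

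Cd44, Igfbp5 and Serpina3n had lower means in oligodendrocytes and neurons than in astrocytes. Cd44 was 6.26 and 6.53 CPM in oligodendrocytes and 2.96 and 3.71 in neurons, and Igfbp5 was 4.03 and 4.47 in oligodendrocytes and 4.28 and 3.92 in neurons. Serpina3n was 2.74 and 4.40 CPM in oligodendrocytes and 1.31 and 1.31 in neurons, but 23.4 and 41.6 in the nuclei labelled Schwann and meningeal cells. In those nuclei Cd44 was 14.8 and 43.4 CPM and Igfbp5 41.7 and 47.2, and both overlapped in range with astrocytes. Fibroblasts, with 46 nuclei in all, had the highest mean Cd44 and Igfbp5 from at most 45 UMIs per gene and genotype, with mice at 0 in both groups. In the WT nuclei of this label fibroblast markers summed to between 0 and 1548 CPM and astrocyte markers to between 1763 and 9248, so that the label is not borne out in WT mice, and in SOD1G93A mice they summed to between 443 and 30541 and to between 192 and 3409 CPM.

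In the 9 other cell types 0 members were called between genotypes. The share of genes called higher there was 0.0475% in oligodendrocytes, 0.0411% in OPCs, 0.0542% in microglia, 0.0255% in neurons, 1.43% in motor neurons, 0.0131% in endothelial cells, 0.036% in Schwann and meningeal cells, and 0% in ependymal cells and fibroblasts. In motor neurons, ependymal cells and fibroblasts 0 members passed the filter on low counts. These types differ in number of nuclei and in depth, and a member called in astrocytes alone is not shown to differ between types.

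**Figure D4:**
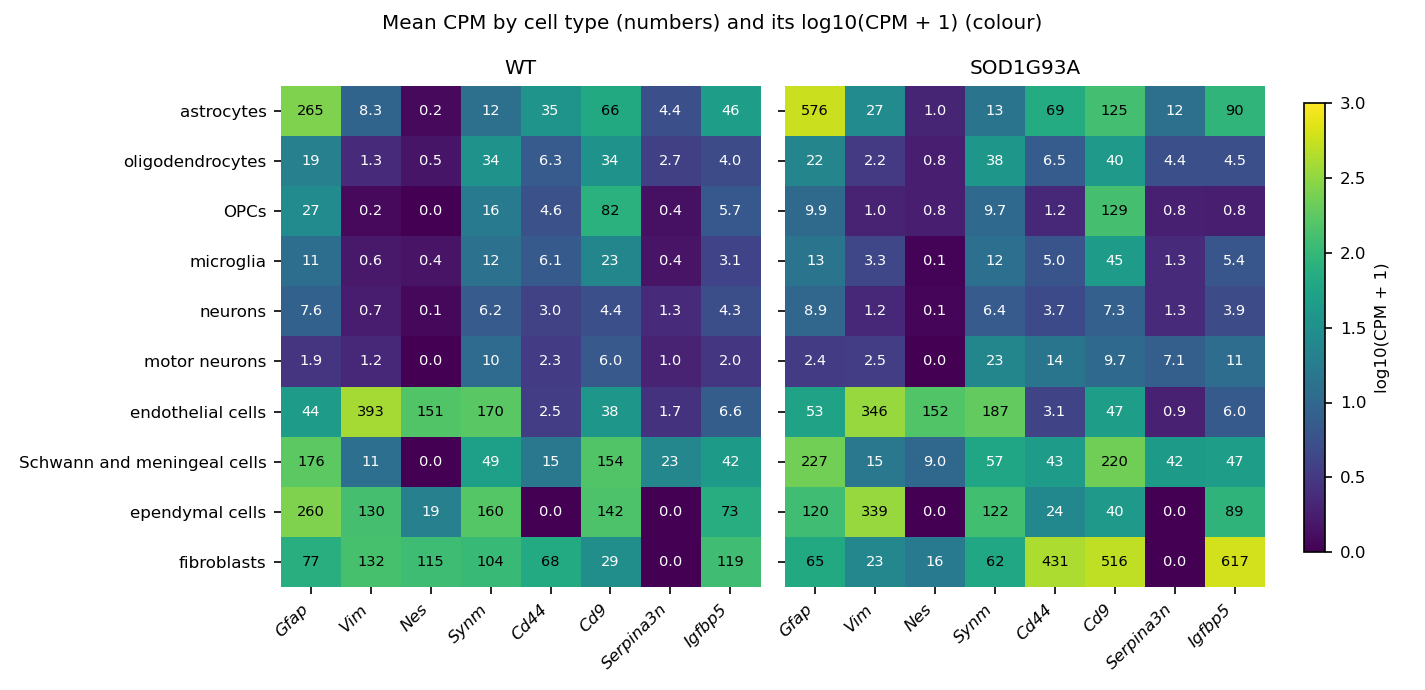
Mean CPM of the 8 genes (columns) in the 10 cell types (rows) for WT and SOD1G93A mice, written in each cell and coloured by log10(CPM + 1). Gfap is highest in astrocytes, and Vim, Nes and Synm are highest in endothelial cells in both genotypes.

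Genes that work with the members or mark other astrocyte states were tested by genotype in astrocytes, from lists that leave the members out. Of 123 such genes, 63 passed the filter, 11 were higher in SOD1G93A and 0 were lower (limma, Benjamini-Hochberg adjusted over all 9347 genes, FDR < 0.1), where 1.38% of all genes were higher and 0.909% lower. The median log2 fold change of the 63 was 0.13. Of these, 6 genes passed the filter through the SOD1G93A mice alone, Hspb1, H2-D1, Cd151, Cebpd, Igfbp7 and Lmna, and without them 10 of 57 were higher and the median was 0.10. The 11 genes came from 5 of the 10 lists. The lists, like the members, were chosen with earlier results of these data known. Their counts and median are thus descriptions, and nothing is read from them beside the share of all genes.

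Of the pan-reactive list, which holds genes induced in many kinds of reactive astrocyte, 1 of 9 genes was testable. That was Hspb1, a small heat-shock protein that binds filaments, at 5.55 ± 3.51 CPM in WT and 16.8 ± 6.55 in SOD1G93A (log2 fold change 1.502, SE 0.32, limma's adjusted p = 0.0166). Hspb1 reached the filter in 0 WT and 4 SOD1G93A mice. It was thus tested through the group where it was higher, and nothing is read from it for the list. Of 13 genes of the A1-type list, linked to inflammatory reactivity, 2 were tested and 0 passed: the class I antigen gene H2-D1 had a log2 fold change of 0.83 (limma's adjusted p = 0.184) and the stress-responsive Fkbp5 one of -0.85 (adjusted p = 0.399). Of 12 genes of the A2-type list, linked to reactivity after ischaemia, 1 was tested and it was higher. S100a10, an annexin partner, went from 17.7 ± 5.19 to 38.4 ± 12.7 CPM (1.06, SE 0.22, limma's adjusted p = 0.0121). Most genes of these 3 lists were thus too low in nuclei to be read.

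All 22 genes of the homeostatic list were tested, 5 were higher and 0 lower. Aqp4, the water channel of the endfeet, went from 698 ± 75.8 to 1218 ± 153 CPM (log2 fold change 0.80, SE 0.11, limma's adjusted p = 0.00013). Clu, a secreted chaperone, went from 212 ± 41.2 to 398 ± 83.5 CPM (0.91, SE 0.12, adjusted p = 0.00013 by limma). Apoe, the lipid carrier, had a log2 fold change of 0.48 (limma's adjusted p = 0.0403) and Gja1, the gap junction protein connexin 43, one of 0.43 (adjusted p = 0.0491). The fifth was Mlc1, a membrane protein of the endfeet, at 0.44 (limma's adjusted p = 0.0977), which lies beyond the limit of 4 named genes per direction and is given to complete the count.

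Of 22 regulators 15 were tested and 2 were higher. Stat3, a transcription factor of the STAT family and a known driver of astrocyte reactivity, went from 75.9 ± 16.8 to 121 ± 17.5 CPM (log2 fold change 0.67, SE 0.15, limma's adjusted p = 0.0201). Sox9, an astrocyte transcription factor, went from 128 ± 15.6 to 190.0 ± 22.6 CPM (0.58, SE 0.13, adjusted p = 0.0221 by limma). Of 8 genes in the list of Cd9 partners and other tetraspanins, 5 were tested and 2 were higher, both tetraspanins: Cd81 from 587 to 817 CPM (0.49, limma's adjusted p = 0.0469) and Cd63 from 24.0 to 43.5 CPM (0.82, adjusted p = 0.0534). The other filament and plakin genes (8 of 12 tested), the Cd44 partners (4 of 9) and the insulin-like growth factor system (5 of 9) had 0 genes called in either direction. Of 7 relatives of Serpina3n, 6 were in the table and 0 passed the filter.

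Several of these calls depended on single mice. Aqp4, Clu, Hspb1, S100a10 and Sox9 stayed called whichever mouse was left out. Stat3 was lost without the WT female of pool C (log2 fold change 0.54). Gja1 was lost without the WT female of pool A, the WT males of pools B and C, the SOD1G93A female of pool B or the SOD1G93A males of pools A and C, at 0.33 to 0.43. Apoe was lost without the WT females of pools A and C, the WT males of pools B and C, the SOD1G93A female of pool B or the SOD1G93A males of pools A and C, at 0.40 to 0.48. Cd81 was lost without the WT females of pools A and C, the WT males of pools B and C, the SOD1G93A females of pools B and C or the SOD1G93A male of pool A, at 0.41 to 0.48. Cd63 was lost without the WT females of pools B and C, the WT male of pool C, the SOD1G93A females of pools B and C or the SOD1G93A males of pools A and C, at 0.67 to 0.80. Mlc1 was lost without any mouse but the SOD1G93A female of pool A or the SOD1G93A male of pool B, at 0.38 to 0.45. With the pool left out of the model, 5 genes of the lists were higher in place of 11, and S100a10, Hspb1, Apoe, Cd81, Cd63 and Mlc1 were not among them. In nuclei with at most 1% mitochondrial UMIs 3 genes of the lists were called, Aqp4, Clu and Gja1. There S100a10 (log2 fold change 0.78), Cd63 (0.84), Stat3 (0.67), Sox9 (0.55), Cd81 (0.52), Apoe (0.51) and Mlc1 (0.33) were not called, and Hspb1 was not tested.

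**Figure D5:**
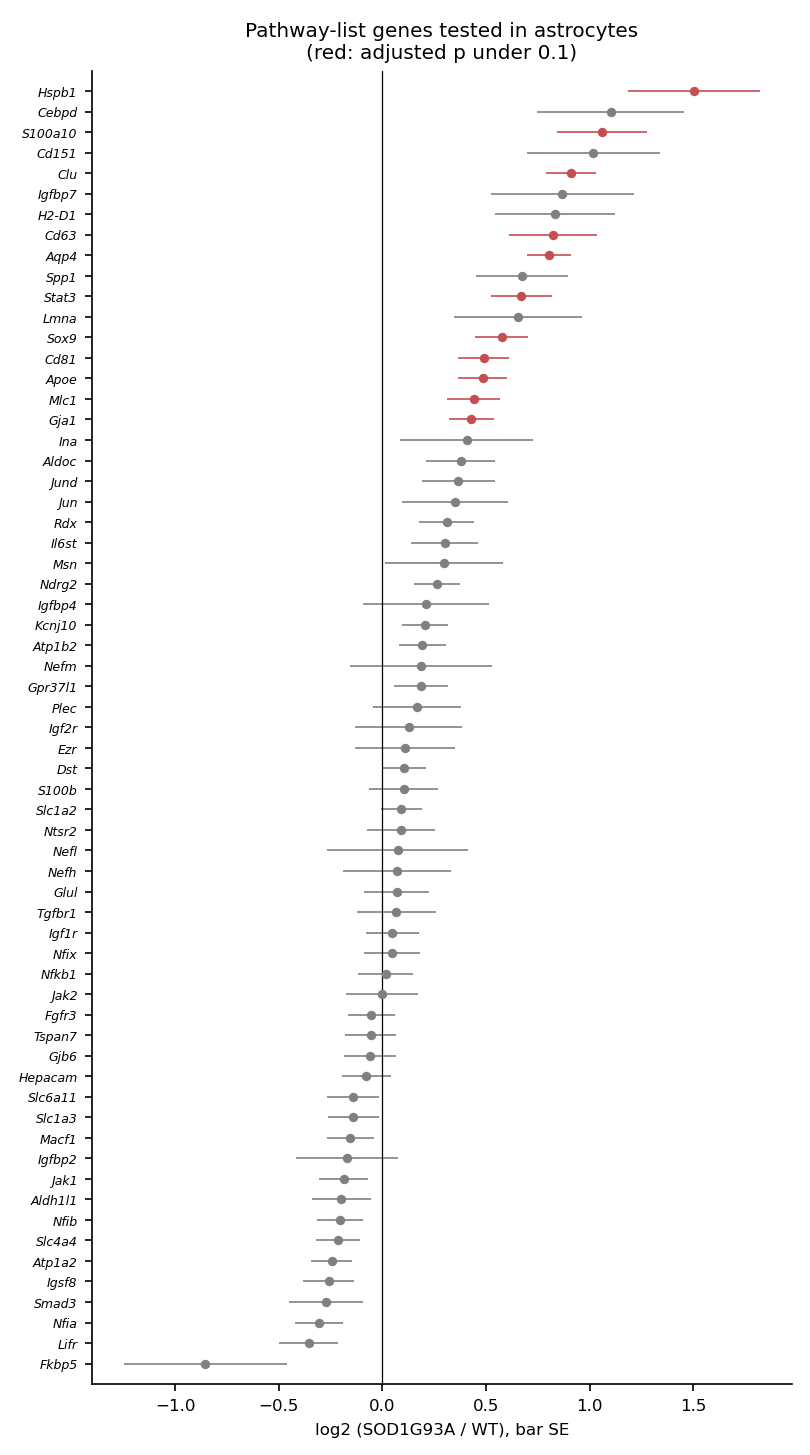
Log2 fold change in astrocytes (SOD1G93A over WT, horizontal axis, bar SE) of the 63 tested genes of the lists, one per line from highest to lowest, with the 11 genes called at FDR < 0.1 in red. All 11 are above 0, led by Hspb1 at 1.502, which passed the filter through the SOD1G93A mice alone. The lowest gene, Fkbp5 at -0.85, has one of the widest errors.

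Finally, the members were compared with all genes over the 12 mice, on log2 CPM with the mean of each pool removed. These values contain the genotype difference and are a description. Closest to Gfap were Ppp1cb, a protein phosphatase subunit (r = 0.96), the gene model Gm10076 (0.96) and C4b, a complement component (0.95). Clu (0.96), Ppp1cb (0.93) and the kinase Rock2 (0.92) were closest to Vim, Adgrb2 (0.97), Fis1 (0.95) and 1700111E14Rik (0.92) to Cd44, and S100a6, H3f3b and Hspb1 (each 0.96) to Cd9. For Igfbp5 they were Pxdn (0.96), Sel1l3 (0.96) and Man1a (0.95), for Serpina3n Cox14 (0.92), Fam217b (0.90) and Uhmk1 (0.89), and for Synm Atp2a2 (0.95), Nt5c3 (0.95) and Mrps25 (0.94). Among the 5 members called higher, r lay between 0.63 (Vim and Cd44) and 0.95 (Gfap and Igfbp5), whereas Synm with Gfap had 0.03.

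Once the mean of each sex and genotype was removed too, other genes came first. They were Lrp4 for Gfap (r = 0.97), Acss2 for Vim (0.98), Ap4m1 for Cd44 (0.98), Tmem208 for Cd9 (0.96), Papss2 for Igfbp5 (0.98), Cox14 for Serpina3n (1.00) and Jund for Synm (0.99). Between the 5 members, r then ran from -0.83 (Vim and Cd44) to 0.55 (Gfap and Cd9), and Gfap with Vim had -0.27. The members were listed from the genotype contrast, so that the values before this step share its difference, and few degrees of freedom are left after it.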

How the data were processed

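As deposited by the authors, the counts are UMIs per gene and nucleus without normalization, from 10x libraries of pooled, hashtagged nuclei counted with Cell Ranger 3.1 (STAR 2.5.1b) on a pre-mRNA mm10 reference, as the study's methods and the submitters' processing notes give it. The authors assigned nuclei to mice, removed those with few genes, over 10% mitochondrial UMIs or hashtags of several or no mice, and removed mitochondrial genes. The mitochondrial percent and the cell types and sub-clusters are the deposited ones. Doublets within 1 mouse are not marked. The deposited table of normalized values and scores was not used.

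UMIs were summed per mouse and type. Genes had to pass filterByExpr, set to the 4 sex-by-genotype groups with a minimum count of 10. Then limma 3.58.1 voom with TMMwsp factors (edgeR 4.0.16, R 4.3.3), terms for group and pool and robust eBayes was run over all genes. Benjamini-Hochberg adjustment and FDR < 0.1 were used. These steps follow the study's methods, which do not say whether the robust option was used. DESeq2 1.42.0, edgeR and other settings were alternatives. The 12 mice had 294711 to 1743993 astrocyte UMIs, and counting error limits Nes, Serpina3n, Synm and Vim most. Mice of the same pool deviated together little over all genes tested (median r 0.03, against -0.02 between pools). The pool term still mattered for the calls, with 105 genes called in astrocytes without it in place of 214. The members and lists were chosen with earlier results of these data known. Named genes are the members, at most 4 called genes per list and direction, and the 3 closest genes by r. P-values measure the spread between mice.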

Additional observations from a re-analysis of the deposited data

Results flagged for a closer look

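Of 88 groups of 6 mice, 9 held 1 mouse far from the others by Dixon's criterion, where chance gives about 1 in 20, and each is given as a value. In astrocytes Cd44 was 69.1 CPM in the WT female of pool C, with the other WT mice between 22.9 and 33.2, and in sub-cluster 3 the same mouse had 684 CPM from 29 UMIs, with the others between 179 and 278. Nes was 1.07 CPM in the astrocytes of the WT female of pool B, which is 1 UMI, with the other WT mice at 0. In sub-cluster 0 Cd9 was 221 CPM in the SOD1G93A male of pool B, with the others between 118 and 151. Gfap was 439.7 CPM in sub-cluster 1 in the SOD1G93A female of pool A, with the others between 66.2 and 204, and 1739 CPM in sub-cluster 4 in the WT male of pool C, with the others between 408 and 798, each from 14 UMIs. In endothelial cells Gfap was 53.3 CPM in the WT male of pool A, with the others between 41.3 and 44.4. Cd44 in neurons was 1.93 CPM in the WT male of pool C, below the others at 2.93 to 3.32, and Synm in oligodendrocytes was 63.4 CPM in the SOD1G93A female of pool A, with the others between 24.4 and 36.5.

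Serpina3n in neurons was lower in the SOD1G93A female and higher in the SOD1G93A male of every pool, with log2 fold changes of -0.31 (SE 0.34) in females and 0.26 (SE 0.26) in males. The females' value minus the males' was -0.57, and that difference was not tested.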

How the results depend on the processing

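All 5 members called higher, a count that describes the list, stayed so with edgeR, DESeq2, TMM, median-of-ratios factors, no filter, eBayes without the robust option, equal weight per nucleus, the top 5% of nuclei left out, no pool in the model, and with each mouse left out in turn (5 to 5). With a minimum count of 30 there were 4, and in nuclei with at most 1% mitochondrial UMIs 3, where Cd9 was not called (log2 fold change 0.73) and Vim was not tested. The counts over all genes moved more. In place of 214 genes, DESeq2 called 99, the low-mitochondrial nuclei 102 and the model without the pool 105. Genes called higher, 129 in the fit described above, were 84 with edgeR, 44 with DESeq2, 51 without the pool, 224 with equal weight per nucleus and 57 in low-mitochondrial nuclei. Of all calls 60.3% were higher, against 44.4% with DESeq2, 48.6% without the pool and 75.2% with equal weight per nucleus. Leaving out 1 mouse gave 80 to 396 genes, of which 43 to 268 were higher. Counts moved by over 1.5 times without the WT females of pools A (137), B (358) and C (104), the WT male of pool C (80), the SOD1G93A females of pools A (396) and C (116), and the SOD1G93A males of pools A (93) and C (124). Genes of the lists called higher, 11 in all, were 5 without the pool, 3 in low-mitochondrial nuclei and 6 to 18 without 1 mouse, and those called lower were 0 to 3. The cause was not tested. Members called for sex or for the interaction were 0 throughout, leaving out each mouse included (0 to 0).

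With no filter on low counts, 1 member, Cd44 in motor neurons, was called in another cell type, and 7 in place of 1 were called over the sub-clusters, 5 of them in sub-cluster 1, where that fit called 6749 genes. Over the sub-clusters, leaving out 1 mouse gave 1 to 2, the added one being Gfap in sub-cluster 1 without the WT female of pool C or the SOD1G93A male of pool A. In sub-clusters and other types, leaving out the pool as a block changed no count of members. The difference in the share of nuclei, in percentage points, was 0.307 for Synm, 1.501 for Serpina3n and 8.36 for Cd9 at 2000 UMIs. Thinned to 1000 UMIs it was 1.48 for Vim, 3.19 for Cd44, 3.68 for Igfbp5, 0.584 for Serpina3n, 5.37 for Cd9 and 0.110 for Synm. That of Synm turned to -0.0985 at 4000 UMIs. Thinned to 4000 UMIs the difference was 4.56 for Vim, 0.411 for Nes and 10.7 for Igfbp5. Without thinning it was 7.27 for Vim, 0.540 for Nes, 1.67 for Synm, 10.9 for Cd44, 15.7 for Cd9, 4.75 for Serpina3n and 13.4 for Igfbp5. Gfap kept 17.1 to 24.6. The low-mitochondrial nuclei and the sub-clusters without 1 mouse were added after the data were seen. The few UMIs of Nes, Serpina3n, Synm and Vim limit what can be read of them.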
